A study of Mus musculus with 12 samples.

Results

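The late response of G1ME cells to GATA1 was measured on 6 of the 12 arrays of the series, 3 labelled GATA1 and 3 labelled vector, all taken 42 h after transduction. The arrays were chosen by their titles, and every gene with a usable probe set entered: 10759 genes were tested of 18193 that have a probe set with a single gene symbol. G1ME is a cultured mouse line of megakaryocyte-erythroid progenitors that is Gata1-negative, and the series asks what follows when GATA1 is expressed in it. The other 6 arrays hold the same constructs at 18 h. Each array measured total RNA, extracted with Trizol and the RNeasy kit, on an Affymetrix mouse platform.

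The vector group was transduced with MIGR1-GFP, a retroviral vector that marks the cells it enters with green fluorescent protein. The GATA1 group received the same vector carrying GATA1. In both groups the GFP-positive fraction was collected by cell sorting, so only transduced cells were measured, and both groups share the Gata1-negative background. The 3 arrays of a group are lettered A, B and C and described as biologic triplicates. As a model the design has 1 cell line, expression driven from a retrovirus and no cells outside the GFP gate. Levels below are the deposited linear intensities, and a difference is the GATA1 mean minus the vector mean of log2(intensity + 16) with its SE. A gene was called where the Benjamini-Hochberg adjusted p of limma, a linear model fitted to all genes, was under 0.05. The offset of 16 compresses the changes of dim genes, so their folds are understated. Slc38a5, Hba-x, Cda, Ermap, Hbb-b2 and Alas2 were at the bottom of the scale in every group except GATA1 at 42 h. They could be tested only because of the arrays where they were high. The fit shares 1 estimate of the spread over all groups, so the flat groups make their SEs and adjusted p-values overstate the support.

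GATA1 is a zinc finger transcription factor that binds GATA sequences together with FOG1 (Zfpm1) and the TAL1, LMO2 and LDB1 complex. In red cell precursors it activates genes of hemoglobin synthesis and of the red cell membrane, in megakaryocytes genes of platelets, and it takes the place of GATA2 at many sites. PU.1 (Spi1), which drives myeloid genes, and GATA1 inhibit each other's activity.

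The sequences before the start sites of the genes that moved most show where such GATA words lie. Among the 15 largest rises with no overlap between the arrays, 10 had RefSeq promoter windows (250 bases before to 50 after a start, build GRCm38.p6), and 5 of their 12 windows held the word AGATAA, or the like word TGATAA, on either strand. These were Hbb-y (chr7:103853208-103853457), Hba-x (chr11:32276350-32276599), Klf1 (chr8:84901732-84901981), Ces2g (chr8:104961468-104961717) and Acp5 (chr9:22135747-22135996). Of the 15 largest falls, 10 had windows, and 2 of 15 windows held such a word, those of Cpa3 (chr3:20242182-20242431) and Il18rap. Each line below gives the 250 bases before the start, 5′ to 3′ on the strand of the gene. Hbb-y, Acp5 and Cpa3 lie on the minus strand. The GATA words are in capitals. Read on the opposite strand, AGATAA appears here as TTATCT, while TGATAA appears as TTATCA.
Hbb-y: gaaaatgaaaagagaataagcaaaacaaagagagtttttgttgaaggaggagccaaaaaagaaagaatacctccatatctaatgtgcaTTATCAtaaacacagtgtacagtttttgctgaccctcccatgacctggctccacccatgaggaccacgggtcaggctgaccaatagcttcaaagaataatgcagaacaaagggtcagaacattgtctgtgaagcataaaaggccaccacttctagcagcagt
Hba-x: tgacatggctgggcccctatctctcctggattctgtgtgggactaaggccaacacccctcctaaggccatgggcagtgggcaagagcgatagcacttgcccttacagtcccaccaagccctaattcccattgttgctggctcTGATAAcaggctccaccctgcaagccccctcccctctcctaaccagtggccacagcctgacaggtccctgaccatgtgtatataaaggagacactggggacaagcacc
Klf1: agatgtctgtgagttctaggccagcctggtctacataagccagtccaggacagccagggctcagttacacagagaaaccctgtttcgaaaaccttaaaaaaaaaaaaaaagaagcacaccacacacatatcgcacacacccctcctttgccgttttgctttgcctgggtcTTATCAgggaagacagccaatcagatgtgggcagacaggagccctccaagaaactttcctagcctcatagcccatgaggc
Ces2g: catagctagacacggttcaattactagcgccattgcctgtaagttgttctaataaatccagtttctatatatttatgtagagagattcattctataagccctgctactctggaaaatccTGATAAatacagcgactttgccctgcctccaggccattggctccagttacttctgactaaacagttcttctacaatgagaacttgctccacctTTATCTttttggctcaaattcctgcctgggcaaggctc
Acp5: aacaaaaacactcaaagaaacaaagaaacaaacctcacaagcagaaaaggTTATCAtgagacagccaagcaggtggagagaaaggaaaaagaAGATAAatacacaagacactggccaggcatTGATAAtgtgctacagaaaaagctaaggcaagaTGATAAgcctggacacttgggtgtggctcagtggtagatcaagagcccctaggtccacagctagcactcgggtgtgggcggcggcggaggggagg
Cpa3: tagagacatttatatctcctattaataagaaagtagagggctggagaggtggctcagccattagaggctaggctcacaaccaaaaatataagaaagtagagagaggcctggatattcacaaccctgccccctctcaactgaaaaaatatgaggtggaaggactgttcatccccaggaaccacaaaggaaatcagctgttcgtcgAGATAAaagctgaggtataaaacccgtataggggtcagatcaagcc

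The word of Klf1 began 80 bases before the start and that of Hbb-y 162 bases before it. Acp5 held 4 such words and Ces2g held 2, while the single word of Cpa3 began 46 bases before the start. Such words were not rare: 18.6% of all 32851 windows and 10.8% of the 11245 windows of tested genes held one. The share was 19.8% over the 268 windows of genes called at least 2-fold higher and 13.1% over the 306 windows of genes called at least 2-fold lower. The word CACCC, which KLF1 and its relatives can bind, was in 74.6% and 69% of these windows against 62.3% of the windows of tested genes, both strands counted. An E-box, CANNTG, which TAL1 and its partners can bind, was in 63.8% and 70.3% against 63.9%. Over all 32851 windows the shares were 57.5% for CACCC and 72.3% for CANNTG. The word TTATCA can share its last letters with either of them. These shares describe the letters in the windows and were not tested.

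Over the 12 arrays the median intensity lay between 8.05 and 8.29. Within a group at 42 h the arrays correlated at 0.99 to 0.997 across the tested genes, and between the groups at 0.969 to 0.979. GATA1-labelled array A at 42 h stood apart in its control probe sets. Its 3′ minus 5′ difference for actin was 0.80 in log2 against 0.38 to 0.55 on the other 11 arrays, and for Gapdh -0.11 against -0.50 to -0.26. Its 18S ribosomal RNA probe sets read 12.41 (5′) and 9.75 (3′) in log2, against at most 10.56 and 8.31 on the other 11. The 4 arrays lettered A had the highest 18S 3′ values, 7.87 to 9.75, against at most 6.34 on the rest. The part of GATA1-labelled array A at 42 h in the results was checked by leaving it out, and the loss of a call without it is given beside the genes it touches.

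The probe set that names Gata1 does not check the labels. Its intensities were 3088, 3053 and 3268 on vector-labelled arrays A, B and C and 2418, 1714 and 1999 on GATA1-labelled arrays A, B and C, so it was bright in the vector group and lower, without overlap, in the GATA1 group (difference -0.63 ± 0.11, adjusted p = 0.00344). No source used here says whether its probes match the transcript of the construct or that of the disrupted gene. The groups are therefore called by their labels, from which every direction is taken.

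GATA1-labelled and vector-labelled cells differed in 2253 genes at 42 h, which is 20.9% of the genes tested. Higher genes numbered 1113 (10.3%) and lower genes 1140 (10.6%). These shares are the background for the counts of each gene list below, which have no test of their own. At least 2-fold changes were found in 534 of them (4.96%), 251 higher (2.33%) and 283 lower (2.63%). Rises of at least 4-fold numbered 81 and falls of that size 53, and the median size of a called change was 0.598 on the log2 scale. The 6 arrays did not overlap between the groups in 2239 of the called genes, against 3593 of all tested genes (33.4%). In 2251 of the called genes the GATA1-labelled array was on the same side of the vector-labelled array in each of letters A, B and C. This had to hold for the 2239 without overlap and was not counted over all tested genes, so it adds no support to the calls. Without GATA1-labelled array A the count of called genes was 2077, of which 1816 were among the 2253.

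**Figure D1:**
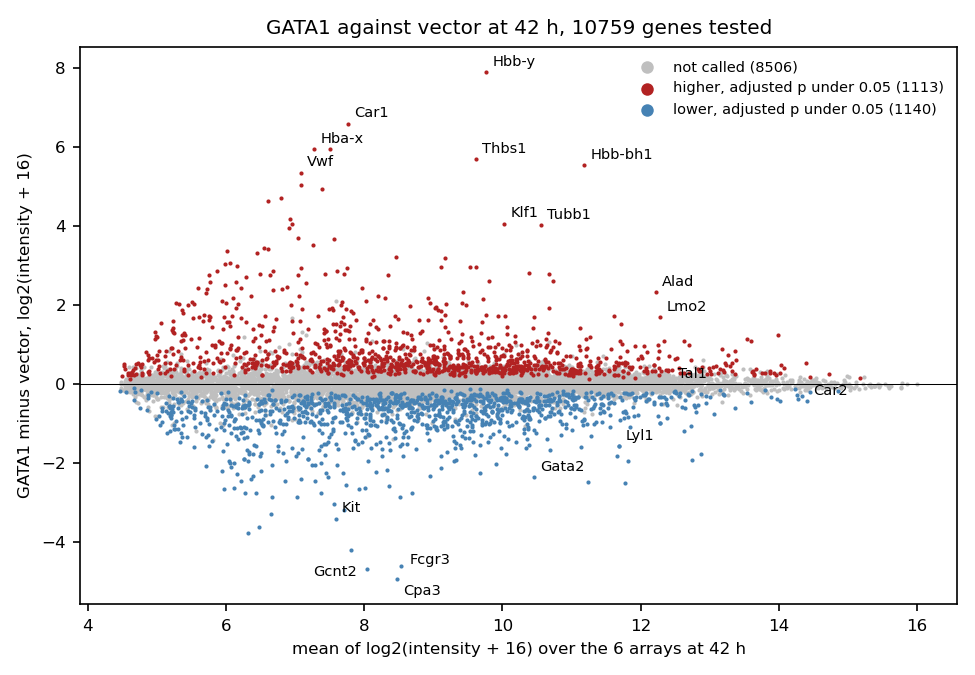
Difference between the GATA1 and vector means at 42 h (vertical axis, log2(intensity + 16)) against the mean over the 6 arrays (horizontal axis, same scale), 1 point per gene tested. Red points mark the 1113 genes called higher, blue points the 1140 called lower and grey points the rest; the largest rises, headed by Hbb-y at 7.88, exceed the largest falls, headed by Cpa3 at -4.94.

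Transcription factors moved in both directions. Of 26 tested members of a list of GATA, SCL and erythroid-megakaryocyte factors, 6 were called higher (23.1%) and 7 lower (26.9%), against 10.3% and 10.6% of all genes tested. The median difference was -0.03 against 0.001 over all genes. Klf1, the factor that switches on adult beta globin and much of the red cell program, read 219, 215 and 291 on the vector-labelled arrays A, B and C and 4504, 3962 and 4228 on the GATA1-labelled arrays. The groups were far apart on every array (difference 4.05 ± 0.19, 16.6-fold, adjusted p = 1.044e-06). Bcl11a, a repressor of embryonic and fetal globin genes, read 44.3, 52.1 and 98.4 and 562, 522 and 655, a rise of 2.93 ± 0.24 (adjusted p = 2.846e-05). Lmo2, the bridging protein of the TAL1 complex, went from 2105, 2936 and 3406 to 8576, 9069 and 9068 (difference 1.68 ± 0.19, adjusted p = 2.232e-04). For neither gene did the groups overlap, and the GATA1-labelled arrays were close together for Lmo2.

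GATA2, the factor that GATA1 displaces, fell at its own transcript: Gata2 read 2729, 3985 and 2910.0 with vector and 426, 763 and 680.5 with GATA1. All 3 GATA1-labelled arrays lay well under the lowest vector-labelled array, and Gata2 fell by 2.36 ± 0.31 (adjusted p = 5.392e-04). Lyl1, the close relative of TAL1, read 6103, 5804 and 5293 and 1750.4, 1926 and 2007, and fell by 1.59 ± 0.08 (adjusted p = 1.192e-06). Sox6, a partner of BCL11A in globin repression, read 1409, 1015 and 952 and 434, 358 and 271, and fell by 1.63 ± 0.18 (adjusted p = 1.940e-04). Bcl11a and Sox6 thus moved in opposite directions on the same arrays. Zbtb16, a progenitor zinc finger factor, also fell, by 1.03 ± 0.15 (adjusted p = 0.00103), with no overlap.

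Other members of the complexes that GATA1 forms were not called. Tal1, the basic helix-loop-helix member of the complex, read 6086, 5453 and 5358 with vector and 5803, 4954 and 5903 with GATA1, with overlapping arrays and a difference of -0.02 ± 0.10 (adjusted p = 0.970). Zfpm1, which encodes FOG1, read 2611, 3635 and 2498 and 3061, 3240.2 and 5123, a difference of 0.36 ± 0.29 (adjusted p = 0.468), and array C with GATA1 stood above the rest. Ldb1, Fli1, Nfe2 and Runx1 had differences of 0.22, 0.18, -0.08 and -0.51, none called. Gfi1b, a repressor that red cell precursors and megakaryocytes need, rose by 0.55 ± 0.10 (adjusted p = 0.00296), and Mafk, a small Maf partner of NFE2, by 0.73 ± 0.10 (adjusted p = 7.674e-04). Id1 and Id2, which hold back basic helix-loop-helix factors, fell by 1.19 ± 0.32 and 1.10 ± 0.28 (adjusted p = 0.0256 and 0.0222). The call on Id1 was lost when any of 3 arrays was left out (adjusted p up to 0.0816, without GATA1-labelled array A) and that on Id2 when any of 4 was left out (adjusted p up to 0.0707, without vector-labelled array B).

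**Figure D2:**
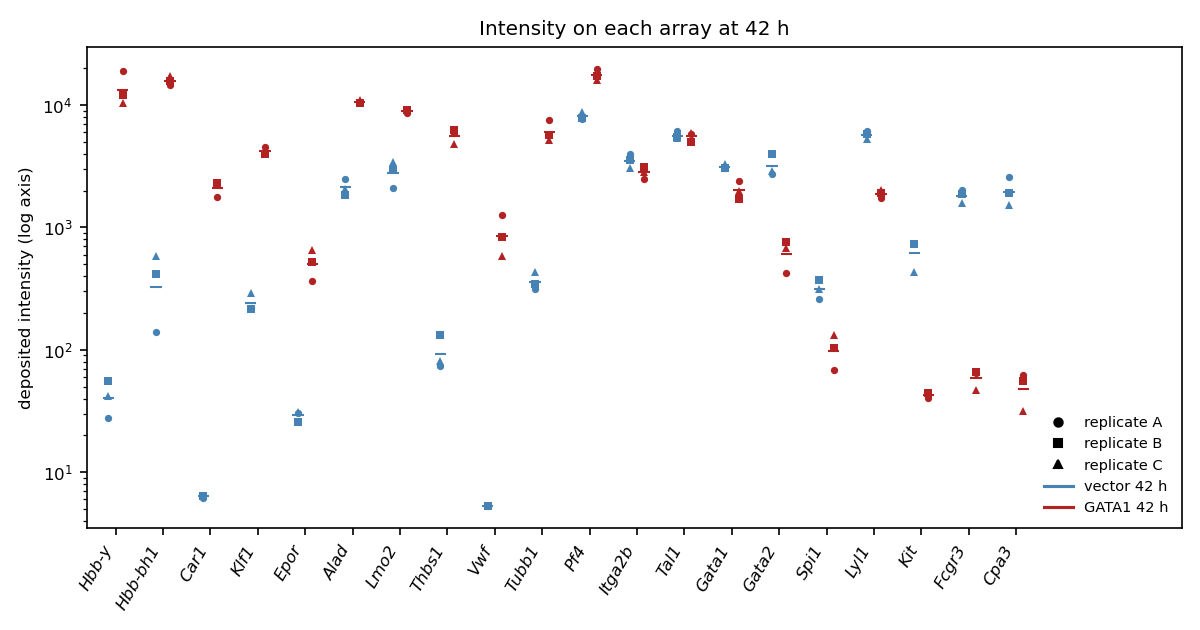
Deposited intensity (log axis) of 20 genes on each array at 42 h; circles, squares and triangles are replicates A, B and C, blue is vector, red is GATA1, and a bar marks the geometric mean of a group. Klf1 lies between 215 and 291 with vector and between 3962 and 4504 with GATA1, while the 2 groups of Tal1 overlap; levels of different genes come from different probes and are not comparable.

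The embryonic globins were among the genes that rose most, with Hbb-y at the head of all genes tested. Hbb-y, the embryonic beta-like globin, read 27.8, 55.4 and 41.9 on the vector-labelled arrays and 18927, 12189.8 and 10319 on the GATA1-labelled arrays. The lowest GATA1-labelled array was above every vector-labelled array by orders of magnitude (difference 7.88 ± 0.49, 236-fold, adjusted p = 5.097e-06). Hba-x, the embryonic alpha-like globin, read 3.87, 3.92 and 3.91, at the bottom of the scale, and 1415, 765 and 1577 (difference 5.93 ± 0.21, adjusted p = 1.621e-07). Hbb-bh1, the other embryonic beta-like globin, read 139, 419 and 581 and 14475, 15751 and 17247 (difference 5.53 ± 0.73, adjusted p = 5.616e-04). Its vector-labelled arrays were the most uneven of these genes, with array A lowest. With an offset of 1 or 64 in place of 16 the difference was 8.34 or 7 for Hbb-y and 7.93 or 4.22 for Hba-x, so the size for a gene at the bottom of the scale depends on the offset.

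For the adult globins the probe sets gave different values. The probe set naming Hbb-b2 read 7.10, 7.09 and 6.95 and 238, 165 and 137, a rise of 3.06 ± 0.14 (adjusted p = 8.348e-07). Its dimmer probe set rose by 0.78 (adjusted p = 2.09e-05), and the difference of the brighter Hbb-b2 probe set was 4.46 or 1.76 with an offset of 1 or 64. That naming Hba-a2 read 39.2, 33.7 and 23 and 32.3, 18.3 and 23.1, with overlapping groups (difference -0.24 ± 0.17, adjusted p = 0.400). Both genes have near-identical copies, so which copy a probe set reads is uncertain. Whether the far brighter embryonic beta-like globins add to the Hbb-b2 signal on the GATA1-labelled arrays was not tested. Of 12 globin genes listed, 6 had a probe set and 5 were tested, of which 4 were called higher (80%) and 0 lower.

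Most of the tested enzymes and transporters that make heme rose. Of 16 tested members of the heme list, 13 were called higher (81.2%) and 0 lower, with a median difference of 1.09. In the order of the pathway, Alas2, the erythroid enzyme of the first step, went from 3.12, 3.20 and 3.21 to 91.5, 43.8 and 60 (difference 2.04 ± 0.16, adjusted p = 2.554e-05). It stayed under 100 on every array in both groups, and its difference was 3.92 or 0.93 with an offset of 1 or 64. Alad, the enzyme of the next step, went from 2503, 1847 and 2077 to 10559, 10463 and 11026 (difference 2.32 ± 0.11, adjusted p = 8.131e-07), with 3 nearly equal GATA1-labelled arrays. Urod rose by 1.09 ± 0.11 (adjusted p = 8.729e-05), and Cpox went from 469, 643 and 754 to 3631, 4168 and 5138 (difference 2.77 ± 0.28, adjusted p = 1.129e-04). Ppox rose by 1.89 ± 0.12 (adjusted p = 5.767e-06). The last enzyme, Fech, which inserts the iron, rose less than these, by 0.39 ± 0.11 (adjusted p = 0.0376). That call was lost when any of 6 single arrays was left out (adjusted p up to 0.124, without vector-labelled array A at 42 h). Uros, another enzyme of the pathway, was not called (difference 0.17, adjusted p = 0.321). Alas1, which shares the first step with Alas2, rose by 0.25 (adjusted p = 0.0249) and was not followed under the alternatives.

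Heme pathway transporters moved with the enzymes. Abcb6, a porphyrin transporter, read 207, 206 and 230.1 and 917, 1023 and 1102 (difference 2.16 ± 0.08, adjusted p = 2.362e-07). Abcb10, Tmem14c and Slc25a38, which serve the mitochondrial steps, rose by 1.09 ± 0.17, 0.98 ± 0.15 and 0.70 ± 0.12 (adjusted p = 0.00181, 0.00157 and 0.00310). Flvcr1, the heme exporter, rose by 1.13 ± 0.11 (adjusted p = 1.076e-04). In heme breakdown Blvrb, biliverdin reductase B, went from 528, 385 and 584 to 3127, 3549 and 3856 (difference 2.79 ± 0.14, adjusted p = 1.418e-06). Hmox1, the inducible heme oxygenase, lay between 15.3 and 17.3 on the 6 arrays (difference -0.04 ± 0.16, adjusted p = 0.961).

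Iron genes rose in 9 of 16 tested members (56.2%) and fell in 1 (6.25%), with a median difference of 0.44. Slc40a1, the iron exporter ferroportin, went from 6.69, 6.27 and 6.49 to 149.9, 122 and 86.2 (difference 2.56 ± 0.30, adjusted p = 2.684e-04). Slc11a2, the endosomal iron transporter, read 96.7, 104 and 141 and 206, 278 and 347 (difference 1.16 ± 0.21, adjusted p = 0.00400). For both the groups stood apart on all arrays. Tfrc, the transferrin receptor, rose by 0.44 ± 0.07 (adjusted p = 0.00201), and Glrx5, an iron-sulfur cluster protein, by 0.72 ± 0.06 (adjusted p = 4.687e-05). Ncoa4, the receptor that takes ferritin to the lysosome, was the member that fell, from 7500.1, 7178 and 6875 to 3972, 3955 and 3905 (difference -0.86 ± 0.08, adjusted p = 4.658e-05). Steap3, the endosomal iron reductase, read 75.7, 137 and 80 and 157, 309 and 551 (difference 1.52 ± 0.39, adjusted p = 0.0211), a call lost when any of 4 single arrays was left out (adjusted p up to 0.0737, without vector-labelled array A at 42 h). A dimmer probe set of Tfrc gave a difference of 0.74 that did not pass (adjusted p = 0.178).

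Red cell surface and membrane skeleton genes formed another rising group, with 13 of 20 tested members called higher (65%), 1 lower (5%) and a median difference of 1.32. Car1, erythroid carbonic anhydrase, was near the bottom of the scale with vector (6.21, 6.39 and 6.43) and read 1777, 2319 and 2293 with GATA1 (difference 6.58 ± 0.11, adjusted p = 1.158e-09). Of the skeleton, Sptb, beta spectrin, read 15, 13.8 and 15 and 371, 481 and 662 (difference 4.05 ± 0.19, adjusted p = 8.131e-07). Add2, beta adducin, read 10.5, 13.6 and 13.6 and 209, 296 and 400.5 (difference 3.43 ± 0.20, adjusted p = 3.362e-06). On both genes array A was the lowest of the GATA1-labelled arrays and still far above the vector-labelled arrays. Tmod1, which caps actin filaments in the skeleton, rose by 1.84 ± 0.12 (adjusted p = 8.219e-06).

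Blood group and other surface proteins were among the members that rose. Ermap went from 4.44, 4.08 and 4.15 to 269, 119 and 212 (difference 3.35 ± 0.21, adjusted p = 5.355e-06). Icam4 went from 74.8, 98.8 and 132 to 948, 1059.5 and 1168 (difference 3.21 ± 0.19, adjusted p = 4.140e-06), and Rhag, of the Rh complex, from 27.6, 6.27 and 12.1 to 501, 199 and 274 (difference 3.40 ± 0.33, adjusted p = 8.599e-05). None of these had overlapping arrays. Slc14a1, the urea transporter, rose by 1.70 ± 0.19 (adjusted p = 2.019e-04) and Gypc, a glycophorin, by 0.96 ± 0.10 (adjusted p = 1.346e-04). Slc4a1, the band 3 anion exchanger, was low and uneven with GATA1, at 133, 25.7 and 73.9 against 9.40, 9.93 and 10 (difference 1.67 ± 0.35, adjusted p = 0.00778). Its call was lost with only the 6 arrays at 42 h (adjusted p = 0.0743), with array weights (0.055) and without the 4 arrays lettered A (0.0658). Car2, the carbonic anhydrase shared with other cell types, was the member that fell, from 26492, 25768 and 24089.8 to 19040.1, 17189.6 and 19821 (difference -0.45 ± 0.07, adjusted p = 0.00118).

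Cd24a and Kel are surface genes that missed the threshold here and passed it under some alternatives. Cd24a read 326, 48 and 21.6 with vector and 988, 213 and 259 with GATA1, with letter A highest in both groups. Its difference of 2.09 ± 1.05 was not called (adjusted p = 0.213), and was called with the replicate letter as a block (difference 2.09 ± 0.22, adjusted p = 0.000311) and without the 4 arrays lettered A (adjusted p = 0.00403). Kel read 297, 231 and 264 and 511, 459 and 516, and its adjusted p was 0.0672 without and 0.0213 with the block. Kel was also called with the stricter filter (adjusted p = 0.0352), with only the 6 arrays at 42 h (0.00572) and without vector-labelled array C at 18 h (0.0146).

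Genes of later red cell maturation were mixed: 4 of 15 tested members were called higher (26.7%) and 3 lower (20%), with a median difference of -0.12. Over all genes tested the shares were 10.3% and 10.6%. Epor, the erythropoietin receptor, read 30.4, 25.9 and 31.3 on the vector-labelled arrays and 362, 519.8 and 659 on the GATA1-labelled arrays (difference 3.51 ± 0.24, adjusted p = 8.401e-06), far apart in all 3 letters. Trim10, an erythroid ring finger protein, rose by 2.04 ± 0.22 (adjusted p = 1.490e-04) and Rb1, the retinoblastoma protein, by 0.69 ± 0.12 (adjusted p = 0.00263). Nudt4, Ube2h, a ubiquitin-conjugating enzyme, and Xpo7, a nuclear exporter, fell by 1.16 ± 0.15, 0.82 ± 0.14 and 0.80 ± 0.12 (adjusted p = 5.752e-04, 0.00297 and 0.00120). Btg2, an antiproliferative gene, read 68.9, 42.4 and 51.3 and 349.9, 174 and 137 without overlap and missed the threshold (difference 1.66 ± 0.53, adjusted p = 0.0545; adjusted p = 0.00208 with the replicate letter as a block). A dimmer probe set of Rb1, near the bottom of the scale, differed by 0.08 and did not pass (adjusted p = 0.513).

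Megakaryocyte genes rose in part. Of 14 tested platelet granule proteins, 7 were called higher (50%) and 6 lower (42.9%), with a median difference of 0.59. Thbs1, thrombospondin, read 73.7, 132 and 81.2 on the vector-labelled arrays and 5943, 6220.3 and 4789.9 on the GATA1-labelled arrays (difference 5.69 ± 0.39, adjusted p = 9.651e-06). Vwf, von Willebrand factor, went from 5.26, 5.28 and 5.31 to 1256, 833 and 580.5 (difference 5.34 ± 0.30, adjusted p = 2.627e-06), with array A highest. Sparc, a matrix protein of alpha granules, went from 21.9, 46.9 and 46.5 to 529, 801 and 656 (difference 3.66 ± 0.25, adjusted p = 8.655e-06). The groups were apart on every array for these 3 genes, which the choice of the largest rises required of Thbs1 and Vwf. Pf4, platelet factor 4, was already bright with vector (7662, 7884 and 8788) and rose to 19755, 17148 and 16065 (difference 1.12 ± 0.16, adjusted p = 0.00105). Ppbp, the platelet basic protein, rose by 2.84 ± 0.44 (adjusted p = 0.00157) and Clu, clusterin, by 0.87 ± 0.13 (adjusted p = 0.00120).

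The granule members that fell included both cargo and the machinery of granule formation. F13a1, the A subunit of factor XIII, read 1053, 1259 and 1123 and 602, 652 and 526, and fell by 0.93 ± 0.16 (adjusted p = 0.00257). Mmrn1, multimerin, read 613, 980.3 and 1197 and 450.0, 506 and 503 and fell by 0.86 ± 0.26 (adjusted p = 0.0408), a call lost when any of 7 single arrays was left out (adjusted p up to 0.121, without vector-labelled array C at 42 h, and 0.103 without GATA1-labelled array A at 42 h). Srgn, the granule proteoglycan serglycin, fell by 0.45 ± 0.08 (adjusted p = 0.00278). Nbeal2, Vps33b and Lyst, which are needed to build granules, fell by 0.97 ± 0.21, 0.69 ± 0.08 and 0.55 ± 0.10 (adjusted p = 0.00960, 2.053e-04 and 0.00373). The groups did not overlap for any of these genes. A dimmer probe set of Nbeal2 gave -1.51 and did not pass (adjusted p = 0.155), nor did the mean of its probe sets (0.052). That of Mmrn1, near the bottom of the scale, gave -0.04 (adjusted p = 0.707). Without the 4 arrays lettered A neither Nbeal2 (adjusted p = 0.0683) nor Lyst (0.0532) was called.

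Platelet receptors and their signalling partners were called higher in 11 of 25 tested members (44%) and lower in 2 (8%), with a median difference of 0.32. Slc6a4, the serotonin transporter that loads platelets, went from 4.33, 4.68 and 5.28 to 119, 81.9 and 89.3 (difference 2.43 ± 0.10, adjusted p = 3.350e-07). Rasgrp2, which activates the Rap1 GTPase in platelets, went from 224, 227 and 236 to 1111, 929 and 954 (difference 2.04 ± 0.18, adjusted p = 4.390e-05). Gp1bb, a subunit of the von Willebrand factor receptor, went from 1742, 1834 and 1616 to 6742, 5832 and 4637 (difference 1.70 ± 0.17, adjusted p = 9.260e-05). Within that receptor Gp9 moved the other way, from 2599, 3143 and 2973 to 2089, 2286 and 2321 (difference -0.38 ± 0.11, adjusted p = 0.0422), a call that was lost when any of 7 single arrays was left out (adjusted p up to 0.137, without vector-labelled array B at 42 h, and 0.119 without GATA1-labelled array A at 42 h). P2ry1, an ADP receptor, rose by 1.56 ± 0.12, Ptgir, the prostacyclin receptor, by 1.49 ± 0.23 and Alox12, platelet lipoxygenase, by 1.80 ± 0.07 (adjusted p = 1.543e-05, 0.00147 and 2.362e-07). Rgs18, a regulator of G protein signalling abundant in platelets, was the other member that fell, from 7318, 8668 and 7884 to 5763, 5708 and 4134 (difference -0.62 ± 0.14, adjusted p = 0.0108).

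The fibrinogen receptor was not called. Itga2b, its alpha subunit, read 3990.0, 3574 and 3054 with vector and 2500.1, 3141 and 2836 with GATA1 (difference -0.32 ± 0.13, adjusted p = 0.108). Itgb3, the beta subunit, read 1890.1, 2139 and 1333 and 1678, 1333 and 1864 (difference -0.12 ± 0.17, adjusted p = 0.733). The arrays of both genes overlapped between the groups and were bright in each. Without vector-labelled array C at 42 h Itga2b was called lower (adjusted p = 0.0472).

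In the megakaryocyte cytoskeleton 3 of 12 tested members were called higher (25%) and 1 lower (8.33%), against 10.3% and 10.6% of all genes tested. Tubb1, the beta tubulin of platelets, read 312, 344 and 434 on the vector-labelled arrays and 7552, 5648 and 5157 on the GATA1-labelled arrays (difference 4.01 ± 0.19, adjusted p = 1.044e-06). Tpm4, a tropomyosin, read 145, 173 and 217 and 2109, 1559.9 and 1551 (difference 3.18 ± 0.23, adjusted p = 1.147e-05). Both had array A highest with GATA1 and no overlap. Actn1, alpha actinin, rose from 81.5, 67.3 and 77.6 to 260.2, 161 and 146 (difference 1.13 ± 0.21, adjusted p = 0.00417), and its dimmer probe set was not called (difference 0.05, adjusted p = 0.93). Tuba8, an alpha tubulin, fell by 0.73 ± 0.14 (adjusted p = 0.00438).

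Stem and progenitor regulators were called lower in 7 of 16 tested members (43.8%) and higher in 1 (6.25%), with a median difference of -0.30. Kit, the stem cell factor receptor, read 731, 730.0 and 431 on the vector-labelled arrays and 40.4, 44.1 and 44.2 on the GATA1-labelled arrays. The 3 GATA1-labelled arrays were nearly equal and far under the vector-labelled ones (Kit fell by 3.42 ± 0.21, adjusted p = 4.706e-06). Ikzf2, a zinc finger factor of the Ikaros family, read 1514, 846 and 710.5 and 141, 115 and 106, and fell by 2.86 ± 0.25 (adjusted p = 4.405e-05). Hhex, a homeobox factor of blood progenitors, read 1340.4, 1166 and 941 and 454, 356 and 327, and fell by 1.56 ± 0.18 (adjusted p = 2.255e-04). Meis1 and Ikzf1 fell by 1.18 ± 0.10 and 1.01 ± 0.06 (adjusted p = 4.112e-05 and 4.607e-06).

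Slamf1, a surface receptor of stem cells, megakaryocytes and other cells, was the progenitor gene that rose, from 262, 271 and 353 to 1762, 1529 and 1319 (difference 2.32 ± 0.19, adjusted p = 3.207e-05). Myb, which keeps progenitors dividing, fell by 0.41 ± 0.08 (adjusted p = 0.00772), whereas Myc read 2068, 2777 and 2706 and 2215, 2413 and 2810.2, with overlapping arrays (difference -0.02 ± 0.23, adjusted p = 0.995). Dimmer probe sets of Ikzf2, Meis1, Ikzf1 and Myb differed by -1.57, -1.1, -0.54 and -0.33, none called (adjusted p = 0.14, 0.334, 0.187 and 0.134).

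Genes of PU.1 and the myeloid lineage were called lower in 11 of 24 tested members (45.8%) and higher in 1 (4.17%; 2 with the replicate letter as a block), with a median difference of -0.51. Spi1 itself read 261, 372 and 313 on the vector-labelled arrays and 68, 103 and 131 on the GATA1-labelled arrays, without overlap, and fell by 1.53 ± 0.24 (adjusted p = 0.00159). Fcgr3, a low-affinity immunoglobulin receptor, went from 2019, 1880.3 and 1591 to 64.8, 66.4 and 46.7, 24.6-fold lower (adjusted p = 3.371e-08). Tyrobp and Fcer1g encode the signalling adaptors of such receptors. Tyrobp read 979.8, 1108 and 1127 and 99.6, 197 and 144 and fell by 2.78 ± 0.25 (adjusted p = 4.995e-05), and Fcer1g read 2177, 2413 and 2253 and 811, 778 and 711 and fell by 1.55 ± 0.09 (adjusted p = 3.665e-06). On each of these genes every GATA1-labelled array was lower than every vector-labelled one.

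Subunits of the phagocyte oxidase fell as well: Ncf1 by 2.18 ± 0.10 and Ncf4 by 1.39 ± 0.11 (adjusted p = 8.131e-07 and 2.576e-05). Clec4e, a C-type lectin receptor, went to the bottom of the scale, from 291, 251 and 298 to 5.78, 4.92 and 6.38 (difference -3.77 ± 0.23, adjusted p = 4.706e-06). A dimmer probe set of Clec4e gave -0.44 and did not pass (adjusted p = 0.0772). Mpo, myeloperoxidase, was low with vector (92.1, 181 and 172) and lower with GATA1 (8.66, 12 and 6.38; adjusted p = 0.00130). Prtn3, a neutrophil protease, was the member that rose, from 20.4, 23.5 and 26.6 to 46.3, 65.9 and 78.2 (difference 0.99 ± 0.14, adjusted p = 0.00101), under 100 on all 6 arrays.

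Several defining markers of mature myeloid cells were at the bottom of the scale in both groups, and others were bright. Elane lay between 4.42 and 4.47 on the 6 arrays, Cd14 between 3.38 and 3.42, S100a8 between 5.63 and 5.74 and Itgam between 5.27 and 6.27. The lysozyme Lyz1 lay between 940 and 2180, the lectin Clec4d between 1140 and 2560 and the oxidase subunit Cyba between 2600 and 5070. Cyba was not called in limma (adjusted p = 0.174) but was called higher with the replicate letter as a block (adjusted p = 0.00845). Of 40 myeloid genes with a probe set, 27 were under 100 on all 6 arrays. The summed intensity of the 40 was 16200 to 17840 with vector and 8682 to 10150 with GATA1. In these bulk samples fewer cells of a type and less RNA per cell cannot be told apart.

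Mast cell, basophil and eosinophil genes were called lower in 5 of 9 tested members (55.6%) and higher in 0. Cpa3, a mast cell carboxypeptidase also made by progenitors, read 2589, 1916 and 1518 on the vector-labelled arrays and 62.2, 55.5 and 31.9 on the GATA1-labelled arrays, 30.7-fold lower (adjusted p = 1.079e-06). Slc18a2, a vesicular monoamine transporter, read 756, 709 and 424 and 127, 143 and 86.7 and fell by 2.24 ± 0.26 (adjusted p = 2.241e-04). Hpgds, prostaglandin D synthase of blood cells, read 98.4, 164 and 141 and 23.2, 23 and 25 and fell by 1.90 ± 0.17 (adjusted p = 4.527e-05). Each was without overlap, while Alox5, arachidonate 5-lipoxygenase, read 1744, 1969.9 and 1835 and 2185, 2056 and 1786 and was not called (adjusted p = 0.507). The mast cell proteases Mcpt1, Mcpt2, Mcpt4, Mcpt8 and Tpsb2 and the receptor subunit Fcer1a stayed between 4.65 and 6.28 on every array. Of 27 genes with a probe set, 22 were under 100 on all 6 arrays, and their summed intensity was 4405 to 5724 with vector and 2240 to 2678 with GATA1.

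Markers of other cell types gave little signal. Of 28 lymphoid genes 25 were under 100 on all 6 arrays, and their summed intensity was 385.5 to 564.5 with vector and 356.6 to 453.5 with GATA1. Zap70, a kinase of T cells, read 80.3, 114 and 132 and 19.4, 35.3 and 43.2 and fell by 1.37 ± 0.28 (adjusted p = 0.00734). Cd79b, a B cell receptor chain, read 60.4, 109 and 134 and 22.2, 42.1 and 49.1 and fell by 1.10 ± 0.33 (adjusted p = 0.0423), a call lost when any of 7 single arrays was left out (adjusted p up to 0.128, without GATA1-labelled array A at 42 h). These were the 2 called of 5 tested lymphoid genes. Nkg7, another of the 5, went the other way, from 97 to 147 with vector to 159 to 228 with GATA1. It was not called (adjusted p = 0.0859) but was called higher with the replicate letter as a block (adjusted p = 0.00253). A dimmer probe set of Zap70 gave -0.47 and did not pass (adjusted p = 0.149). Of 18 stromal genes 16 were under 100, with sums of 288.9 to 441.5 and 236.5 to 306.7. The 2 stromal members past the threshold went in opposite directions: Fap, a surface protease, from 181, 290.0 and 331 to 15, 22.2 and 29.5 and Col5a1, a collagen chain, from 5.68, 5.70 and 5.97 to 118, 139.5 and 173 (adjusted p = 2.937e-04 and 2.362e-07). Fibroblast collagen Col1a1 stayed between 7.3 and 7.55.

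**Figure D3:**
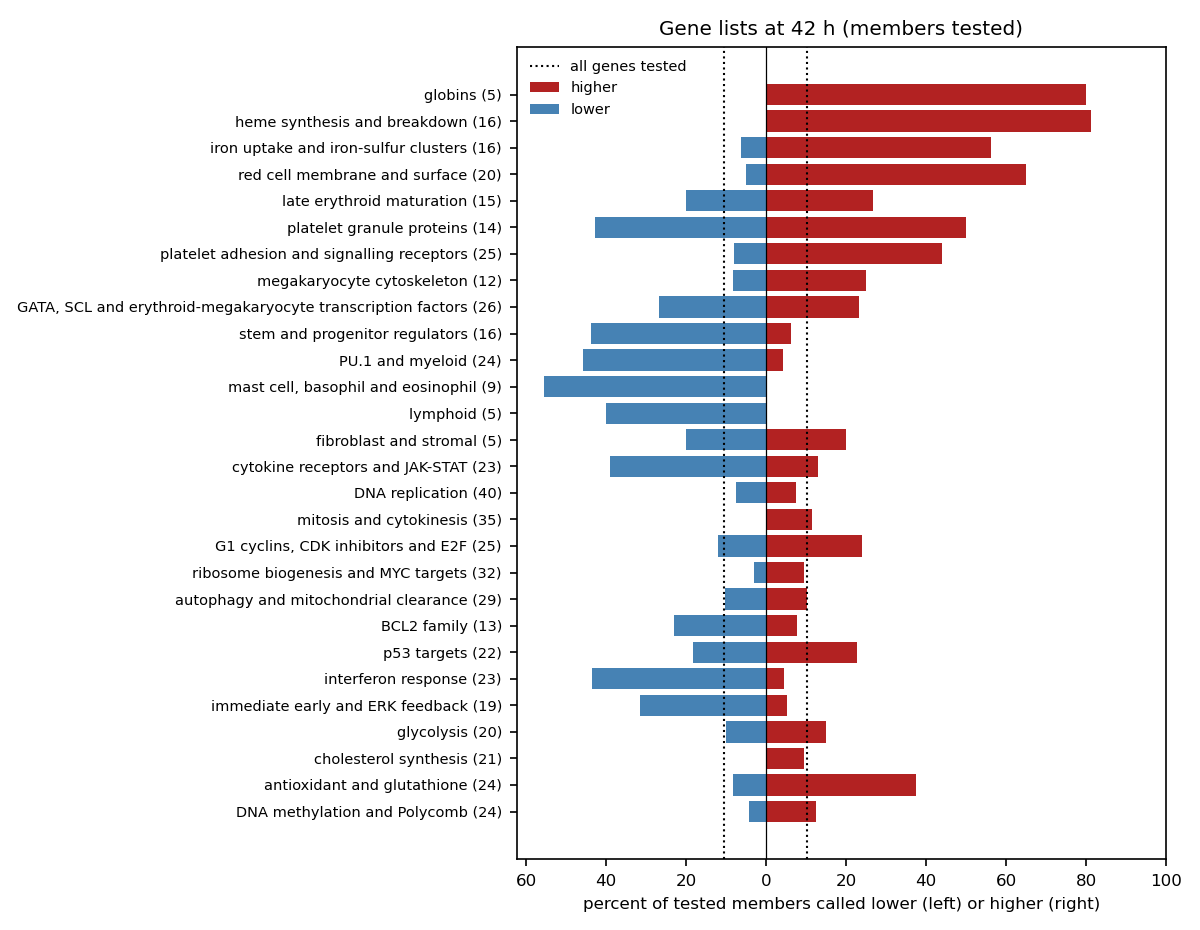
Percent of the tested members of each of 28 gene lists called higher (red, to the right) or lower (blue, to the left) at 42 h, with the number tested in parentheses; dotted lines mark the shares over all genes tested, 10.3% higher and 10.6% lower. Heme genes (81.2% higher) and mast cell genes (55.6% lower) lie at the ends, while DNA replication lies near the dotted lines; the shares have no test of their own.

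Cytokine signalling genes were called lower in 9 of 23 tested members (39.1%) and higher in 3 (13%). Csf2rb, the common beta chain of the IL-3, IL-5 and GM-CSF receptors, read 5722, 4793 and 3868 on the vector-labelled arrays and 10171, 9174 and 8887 on the GATA1-labelled arrays (difference 0.99 ± 0.20, adjusted p = 0.00708). Its close paralog Csf2rb2 rose by 1.5 ± 0.31 (adjusted p = 0.00684), and reads of such copies may be shared between their probes. Il4ra, the interleukin 4 receptor, read 315, 426 and 330.1 and 23.5, 65.7 and 75.8 and fell by 2.47 ± 0.29 (adjusted p = 2.612e-04). Of the kinases Jak3 fell by 1.24 ± 0.17 and Jak1 by 0.80 ± 0.11 (adjusted p = 7.779e-04 and 8.951e-04), and Jak2, which serves the erythropoietin receptor, read 692, 502 and 566 and 593, 477 and 430.4 with overlap (adjusted p = 0.442; 0.0424 with the replicate letter as a block). Pim2, a survival kinase that STAT5 induces, read 457, 657 and 674 and 194, 216 and 258 and fell by 1.35 ± 0.24 (adjusted p = 0.00327). Stat3 fell by 0.81 ± 0.11 and Stat5b rose by 0.58 ± 0.13 (adjusted p = 7.738e-04 and 0.0111). Dimmer probe sets of Csf2rb and Stat5b gave 1.1 and 0.25 and did not pass (adjusted p = 0.134 and 0.449).

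Interferon response genes were called lower in 10 of 23 tested members (43.5%) and higher in 1 (4.35%; 2 with the replicate letter as a block), with a median difference of -0.28. Psmb8, an immunoproteasome subunit, read 1453, 1441 and 1395 and 458, 669 and 554 and fell by 1.34 ± 0.11 (adjusted p = 3.346e-05), and its partner Psmb9 fell by 0.88 ± 0.13 (adjusted p = 9.094e-04). Irf1, a transcription factor of the response, read 146, 140.0 and 168 and 68.6, 71.7 and 59.5 and fell by 1.02 ± 0.08 (adjusted p = 2.678e-05). The receptor chains Ifngr1 and Ifnar1 fell by 0.66 ± 0.10 and 0.62 ± 0.05 (adjusted p = 0.00146 and 2.474e-05). A dimmer probe set of Ifnar1 gave -0.2 and did not pass (adjusted p = 0.466). Rtp4 fell by 1.39 ± 0.27 (adjusted p = 0.00553), while its dimmer probe set stayed near the bottom of the scale (difference -0.01, adjusted p = 0.921). For these 6 genes the arrays did not overlap. Ifi47, an interferon-inducible GTPase, was the member that rose, from 1038, 908 and 1142 to 2443, 1851 and 1723 (difference 0.94 ± 0.13, adjusted p = 6.932e-04).

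Immediate early and ERK feedback genes were called lower in 6 of 19 tested members (31.6%) and higher in 1 (5.26%). Jund, an AP-1 subunit, read 1849, 1477 and 984 and 626, 459 and 337 and fell by 1.56 ± 0.33 (adjusted p = 0.00862). Ier2 read 2062, 2362 and 1919 and 755, 1064 and 986 and fell by 1.17 ± 0.14 (adjusted p = 2.883e-04), and Spred1, an inhibitor of the ERK pathway, fell by 0.82 ± 0.13 (adjusted p = 0.00137). Dusp1, a phosphatase that turns off MAP kinases, went the other way, from 19.9, 23.9 and 24.1 to 98.9, 107 and 86.9 (difference 1.55 ± 0.14, adjusted p = 5.800e-05). Egr1 overlapped at 708, 651 and 524 and 704, 714 and 508 (difference 0.03 ± 0.17, adjusted p = 0.985). Jund lost its call without the 4 arrays lettered A (adjusted p = 0.059).

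Replication genes were called in shares near those of all genes. DNA replication genes were called higher in 3 of 40 tested members (7.5%) and lower in 3 (7.5%), and mitosis genes higher in 4 of 35 (11.4%) and lower in 0. Over all genes the shares were 10.3% and 10.6%, so replication genes were near both and mitosis genes near the first only. With the replicate letter as a block the mitosis count was 8. Leaving out single arrays at 42 h made it 1 (without GATA1 C) or 2 (without vector A, vector C or GATA1 B). The replication counts became 5 higher without vector C and 1 lower without vector A, vector B or GATA1 B. The mitotic genes past the threshold included Ube2c, a ubiquitin-conjugating enzyme of mitotic exit, which rose from 3518, 4047 and 4358 to 5103, 5521 and 5855 (difference 0.47 ± 0.10, adjusted p = 0.00982). Mcm5, of the replicative helicase, read 21629, 19291 and 19619.8 and 23839, 20756 and 18284, and Pcna, the sliding clamp, read 26430.0, 27796 and 27284 and 24843, 26473 and 25752, both overlapping (adjusted p = 0.840 and 0.183). Rrm2, the regulated subunit of ribonucleotide reductase, rose from 7652, 9461 and 9092 to 13242, 12689.7 and 13325 (difference 0.59 ± 0.09, adjusted p = 0.00175) and Orc2, of the origin recognition complex, by 0.74 ± 0.12 (adjusted p = 0.00182). Mki67, the proliferation marker, had a difference of 0.44 ± 0.25 that was not called (adjusted p = 0.277; 0.0136 with the block).

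G1 regulators were called higher in 6 of 25 tested members (24%) and lower in 3 (12%), against 10.3% and 10.6% of all genes tested. E2f2 read 175, 146 and 156 on the vector-labelled arrays and 488, 476 and 413 on the GATA1-labelled arrays (difference 1.44 ± 0.13, adjusted p = 4.471e-05). Ccne1, cyclin E1, read 399, 523 and 429.6 and 852, 886 and 1214 (difference 1.09 ± 0.24, adjusted p = 0.0110). The CDK inhibitor Cdkn1c fell by 1.24 ± 0.28 (adjusted p = 0.0124), as did the pocket protein gene Rbl2 by 0.58 ± 0.09 (adjusted p = 0.00146). Another CDK inhibitor, Cdkn2c, rose by 0.59 (adjusted p = 0.00516) and was not followed under the alternatives. Cdkn1a, which encodes p21, overlapped at 2525, 2696 and 2043 and 2783, 2045 and 2431 (difference 0.00 ± 0.13, adjusted p = 0.999). Groups were apart for E2f2, Ccne1, Cdkn1c and Rbl2. A dimmer probe set of Rbl2 gave -0.61 and did not pass (adjusted p = 0.136).

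Antioxidant genes were called higher in 9 of 24 tested members (37.5%) and lower in 2 (8.33%; 4 with the replicate letter as a block), with a median difference of 0.27. Prdx2, the abundant red cell peroxiredoxin, read 10912, 9901 and 11109 and 24877, 24284 and 25227 (difference 1.22 ± 0.09, adjusted p = 1.666e-05). Nqo1, a quinone reductase, rose from the bottom of the scale, 9.60, 6.07 and 5.85, to 109, 70.7 and 59.9 (difference 2.02 ± 0.20, adjusted p = 9.851e-05). Nfe2l2, the NRF2 factor that acts on such genes, rose by 0.56 ± 0.08 (adjusted p = 6.458e-04). Prdx4, the peroxiredoxin of the endoplasmic reticulum, fell by 0.42 ± 0.09 (adjusted p = 0.00801). None of these overlapped, and a dimmer probe set of Nfe2l2 gave 0.08 (adjusted p = 0.902). A dimmer probe set of Prdx4 was not called either (difference -0.02, adjusted p = 0.973).

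In the BCL2 family 3 of 13 tested members were called lower (23.1%) and 1 higher (7.69%), against 10.6% and 10.3% of all genes tested. Bcl2 read 386, 227 and 259 and 124, 76.5 and 78.1, without overlap, and fell by 1.49 ± 0.20 (adjusted p = 6.479e-04). Bcl2l1, the gene of BCL-XL, which supports erythroid survival, read 312, 317 and 319 and 235, 239.6 and 228 and fell by 0.41 ± 0.08 (adjusted p = 0.00560). Mcl1 overlapped and was not called (difference 0.16 ± 0.11, adjusted p = 0.385). The Bcl2l1 call was lost in its dimmer probe set (difference -0.6, adjusted p = 0.325), and the 1 higher member lost its call when any of 6 single arrays was left out.

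Target genes of p53 were called higher in 5 of 22 tested members (22.7%) and lower in 4 (18.2%), against 10.3% and 10.6% of all genes tested. Without vector-labelled or GATA1-labelled array B at 42 h the higher count was 3, and with the replicate letter as a block the lower count was 7. Perp, a membrane protein gene that p53 and p63 activate, read 768, 583 and 525 and 84, 46.4 and 37.3 and fell by 3.19 ± 0.24 (adjusted p = 1.816e-05). Zmat3, a zinc finger RNA-binding protein, read 216, 179.9 and 171 and 729.9, 663 and 479 and rose by 1.63 ± 0.24 (adjusted p = 0.00107). Phlda3, a p53-induced inhibitor of AKT, rose by 0.75 ± 0.15 and Sesn1, sestrin 1, fell by 0.41 ± 0.09 (adjusted p = 0.00654 and 0.0128). All 4 were apart on all arrays, and they moved in both directions.

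Other cell functions were called in shares closer to the background. Glycolysis genes were higher in 3 of 20 tested members (15%) and lower in 2 (10%; 4 with the replicate letter as a block, 1 without vector B at 42 h), with rises of Pfkp, the platelet phosphofructokinase, from 1051, 975 and 1122 to 2054, 1934 and 2282 (adjusted p = 0.00181) and Pfkm, the muscle form, from 115, 110.5 and 127 to 275, 413 and 392 (adjusted p = 6.363e-05) and a fall of Aldoc, an aldolase, from 939, 682 and 793 to 387, 341 and 404 (adjusted p = 0.00433; lost in its dimmer probe set and without the 4 arrays lettered A). Autophagy genes were higher in 3 of 29 (10.3%) and lower in 3 (10.3%). Both counts were 1 without vector A or vector B at 42 h, and the higher count also without GATA1 A or GATA1 B. With the replicate letter as a block 5 were lower. Pink1, a kinase of mitochondrial clearance, read 401, 361 and 363 and 171, 152 and 147 and fell by 1.18 ± 0.09 (adjusted p = 1.729e-05). Ribosome biogenesis genes were higher in 3 of 32 (9.38%; 6 with the replicate letter as a block, 5 without vector-labelled array C at 42 h) and lower in 1. Odc1, ornithine decarboxylase, rose by 0.47 ± 0.05 (adjusted p = 1.571e-04). Of 24 DNA methylation and Polycomb genes 3 were higher (12.5%; 0 without GATA1-labelled array A at 42 h, 1 without any other array at 42 h except vector C, 5 with the block) and 1 lower (4.17%; 3 with the block). Dnmt3b, a DNA methyltransferase, read 2206, 2109.8 and 2119 and 1345, 1192 and 1091 and fell by 0.82 ± 0.07 (adjusted p = 3.953e-05). Cholesterol synthesis genes were higher in 2 of 21 (9.52%; 4 with the block, 1 without vector B or GATA1 C at 42 h) and lower in 0 (1 with the block), with Ebp, a sterol isomerase, at 0.88 ± 0.06 (adjusted p = 8.655e-06).

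Several of the genes that moved most belong to none of the lists. Ces2g, a carboxylesterase, read 6.86, 7.38 and 7.44 on the vector-labelled arrays and 1223, 1528 and 1513 on the GATA1-labelled arrays (difference 5.94 ± 0.10, adjusted p = 1.158e-09). Sardh, sarcosine dehydrogenase, read 14.3, 14.4 and 14.4 and 963, 918 and 827 (difference 4.92 ± 0.11, adjusted p = 4.431e-09). Slc38a5, an amino acid transporter, read 3.64, 3.66 and 3.67 and 418, 460.4 and 533 (difference 4.62 ± 0.07, adjusted p = 7.646e-10). The vector-labelled arrays of all 3 were flat near the bottom of the scale. Slc38a5 was there at 18 h too, so its small p rests on a spread estimated partly from flat groups. Cldn13, a claudin, Parvb, an actin-binding adhesion protein, and Acp5, an acid phosphatase, rose by 5.04 ± 0.30, 4.70 ± 0.27 and 4.17 ± 0.15 (adjusted p = 4.173e-06, 3.116e-06 and 1.556e-07). Tspan33, a tetraspanin, read 18.8, 21.3 and 21.5 and 721, 341 and 383 (difference 3.69 ± 0.22, adjusted p = 3.648e-06).

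Gcnt2, which makes the branched I blood group antigen, had the second largest fall, from 1276, 1401 and 1327 to 41.2, 28.1 and 39 (difference -4.70 ± 0.22, adjusted p = 8.131e-07). Crisp3, a secreted protein, read 274, 329 and 285 and 9.82, 8.61 and 9.65 and fell by 3.62 ± 0.11 (adjusted p = 5.879e-08). Cd244a, a receptor of the SLAM family, read 268, 342 and 297 and 17.1, 18.5 and 12.8, and fell by 3.31 ± 0.15 (adjusted p = 8.131e-07), opposite to its relative Slamf1. Il18rap, a chain of the interleukin 18 receptor, Elmo1, a regulator of Rac, and Cd52, a leukocyte surface peptide, fell by 3.04 ± 0.12, 2.86 ± 0.30 and 2.78 ± 0.22 (adjusted p = 2.362e-07, 1.238e-04 and 2.750e-05). Stxbp6, a SNARE-binding protein, fell by 2.77 ± 0.12 (adjusted p = 7.831e-07).

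A stricter reading asks which genes were off in one group and on in the other. With the vector-labelled arrays all under their array's median and the GATA1-labelled arrays all over 100, 12 genes qualified (0.112%): Car1, Cda, Ces2g, Cldn13, Col5a1, Ermap, Hba-x, Hbb-b2, Parvb, Slc38a5, Tmcc2 and Vwf. Cda, cytidine deaminase, read 4.56, 4.59 and 4.66 and 103, 143 and 129, and Tmcc2 read 5.83, 6.22 and 5.87 and 164, 158 and 173. The reverse held for 1 gene (0.00929%), Clec4e.

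The late effect was set against the effect at 18 h, which comes from other arrays and so shares no control samples, though the fit shares 1 estimate of the spread. At 18 h 199 genes were called (1.85%). Of the 2253 genes called at 42 h, 187 (8.3%) were also called at 18 h in the same direction, which is 94% of the 199. The difference between the effects was tested as an interaction: 504 genes passed (4.68%), 248 with a higher and 256 with a lower late effect. Of these, 498 were called at 42 h, and in each the interaction had the sign of the late effect. The interaction holds the late effect itself and few genes were called at 18 h, so this agreement of sign was largely built in. The count of 504 was 853 with the replicate letter as a block, 324 without GATA1-labelled array B at 18 h, 326 without GATA1-labelled array C at 18 h and 258 without the 4 arrays lettered A. For the other 1755 called genes no difference between the times was shown in the fit without the block.

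At 18 h Hba-x read 3.95 with vector and 3.92 with GATA1 on average and Slc38a5 3.69 and 3.66, so both were still at the bottom of the scale (interaction 5.93 ± 0.30 and 4.62 ± 0.10, adjusted p = 6.600e-06 and 1.942e-08). Car1 differed by 0.48 at 18 h (interaction 6.09 ± 0.16, adjusted p = 6.366e-08). Gata2 and Hhex likewise had small 18 h differences, -0.19 and -0.01, against their late falls (interaction -2.17 ± 0.43 and -1.55 ± 0.25, adjusted p = 0.0227 and 0.00868). Slc18a2 read 764 and 765 at 18 h (interaction -2.24 ± 0.36, adjusted p = 0.00828). These 6 genes were not called at 18 h.

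Other genes had much of their difference by 18 h. Lmo2 differed by 1.35 at 18 h and 1.68 at 42 h (interaction 0.34 ± 0.27, adjusted p = 0.679), and Csf2rb by 1.05 and 0.99 (interaction -0.07 ± 0.29, adjusted p = 0.958). Ifi47 differed by 0.88 and 0.94 (interaction 0.06 ± 0.18, adjusted p = 0.948) and Jun by -0.86 and -0.87 (interaction -0.01 ± 0.25, adjusted p = 0.996). A dimmer probe set of Jun gave -0.05 at 42 h and did not pass (adjusted p = 0.875). Klf1 differed by 2.92 and 4.05, and its interaction of 1.14 ± 0.28 just missed the threshold (adjusted p = 0.0506). A p that misses the threshold does not show that the effects are equal.

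Siglecf, a sialic acid receptor named here after its values were seen, was the gene called in opposite directions at the 2 times. At 42 h it read 331, 242 and 267 with vector and 144, 159.6 and 166 with GATA1, and it fell by 0.77 ± 0.17 without overlap (adjusted p = 0.0111). At 18 h its group means were 489 with vector and 921 with GATA1 (difference 0.88, adjusted p = 0.0368; interaction -1.65 ± 0.24, adjusted p = 0.00509). Egr1, also chosen after its values were seen, had a difference of 1.19 at 18 h (adjusted p = 0.00671) and 0.03 at 42 h (interaction -1.17 ± 0.24, adjusted p = 0.0236).

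**Figure D4:**
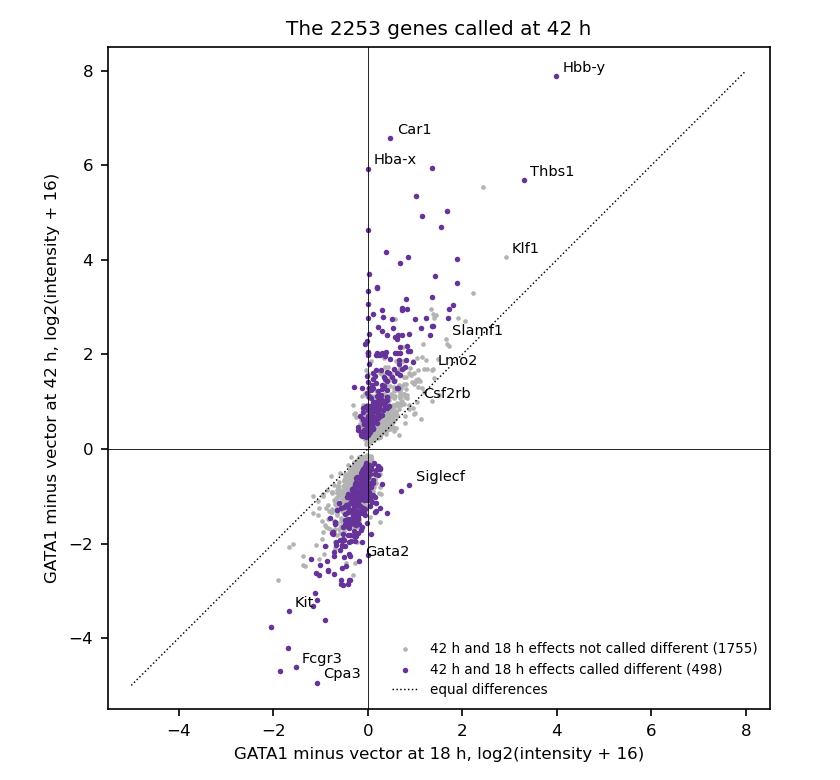
Difference between GATA1 and vector at 42 h (vertical axis) against that at 18 h (horizontal axis), both in log2(intensity + 16), for the 2253 genes called at 42 h; the dotted line marks equal differences. Purple points mark the 498 genes whose effects were called different, which lie above that line where they rose at 42 h and below it where they fell; Siglecf is the gene called in opposite directions.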

How the data were processed

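The deposited values are linear intensities of 45101 Affymetrix probe sets on each of 12 arrays. GCRMA and MAS5 are named, without versions, per the submitters' processing notes, which do not say which gave these intensities; no genome build is named. Of the probe sets 34945 carry 1 gene symbol in the platform annotation, 932 several and 9160 none, beside 64 controls; only the first kind was used, and 34741 of them matched a RefSeq gene ID (GRCm38.p6). Each gene was read from its brightest probe set over the 12 arrays, and genes that were above the median of the array on fewer than 3 arrays were not tested.

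Values were used as log2(intensity + 16) with no further scaling. A linear model over all 12 arrays in 4 groups was fitted with limma (version 3.58.1, R version 4.3.3; 8 residual degrees of freedom, variances moderated by eBayes) and tested two-sided, with Benjamini-Hochberg adjustment over the 10759 genes and a threshold of 0.05. Simulated data had 200 changed genes, noise at the spread of each gene within the 4 groups and no effect of the letter. They gave back 86% of changes of 1 and 97% of changes of 2 on the log2 scale, with 12 false among 195 calls. Far fewer genes changed there than were called at 42 h, so these rates need not hold for the measured data. No source says whether the triplicates came from separate cultures beyond the word biologic, so the p-values measure the spread between these arrays, and 3 arrays a group limit the precision.

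The letters were checked for pairing from the data. The correlation of same-letter arrays in their deviations from the mean of their group was 0.60 for A, 0.24 for B and 0.33 for C over the tested genes, each above the limit of 0.1, although GATA1-labelled array C correlated at 0.39 with vector-labelled array B. The letters were therefore taken to pair the arrays. The counts, SEs and adjusted p-values nevertheless come from the fit without the letter, unless the block is named. With the letter as a block 3052 genes differed in place of 2253, and 853 passed the interaction in place of 504. A gene not called here may therefore be called in the paired fit. The block is given where it changes the call of a named gene at 42 h, while single interactions are given without it.

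The arrays, the 28 gene lists (736 genes, 678 with a probe set, 549 tested) and the rules were chosen with earlier results of these data known. The rule for named genes took Gata1, Gata2, Spi1, Zfpm1, Klf1 and Tal1, 15 rises and 15 falls of greatest size without overlap, at most 3 called members each way from every list, the 10 largest interactions each way and the 8 brightest genes off in one group and on in the other. Clone-type names were left out. These genes were chosen after their values were seen: Abcb6, Abcb10, Alas2, Alox5, Btg2, Cd24a, Cda, Cdkn1a, Clec4d, Clu, Cyba, Dnmt3a, Egr1, Fcer1g, Fech, Fli1, Flvcr1, Gfi1b, Glrx5, Gp1bb, Gp5, Gypc, Hba-a2, Hbb-b2, Hmox1, Icam4, Id1, Id2, Ifnar1, Ifngr1, Ikzf1, Itga2b, Itgb3, Jak1, Jak2, Kel, Klf3, Ldb1, Lyst, Lyz1, Lyz2, Mafk, Mcl1, Mcm5, Meis1, Mki67, Mpo, Myb, Myc, Ncf1, Ncf4, Nfe2, P2ry1, Pcna, Pf4, Ppbp, Ppox, Psmb9, Ptgir, Rhag, Runx1, Siglecf, Slc14a1, Slc25a38, Slc4a1, Spred1, Srgn, Stat3, Tfrc, Tmcc2, Tmem14c, Tmod1, Urod, Vps33b and Zbtb16. Alas1, Cdkn2c, Nkg7 and Uros were also chosen after their values were seen. Alternatives changed the offset, the filter, the scaling, the probe set, the arrays fitted, the weights and the block.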

Additional observations from a re-analysis of the deposited data

Results flagged for a closer look

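In 504 genes the effect of GATA1 at 42 h differed from that at 18 h by the interaction test of limma (4.68% of those tested). Among the genes named here 94 did, 51 with a higher and 43 with a lower late effect, and 63 of them were not called at 18 h. The largest interaction adjusted p among them was 0.047. Values below are the log2 difference at 42 h minus that at 18 h.

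Of the globins, the excess of the late over the early effect was 5.93 for Hba-x, 3.89 for Hbb-y and 3.06 for Hbb-b2. Of the heme and iron genes it was 2.46 for Blvrb, 2.04 for Alas2, 2.02 for Slc40a1, 1.70 for Alad, 1.47 for Abcb6, 1.23 for Ppox, 0.88 for Flvcr1, 0.69 for Urod and 0.41 for Glrx5, while Ncoa4 had -0.59. On the red cell surface and skeleton it was 6.09 for Car1, 3.35 for Ermap, 3.24 for Add2, 3.21 for Rhag, 3.19 for Sptb, 1.85 for Icam4 and 0.88 for Tmod1, and -0.45 for Car2. Epor had 1.62, Trim10 had 1.67, Bcl11a had 2.20 and Prdx2 had 1.01.

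Of the megakaryocyte genes, Vwf had 4.31, Slc6a4 2.41, Thbs1 2.38, Tpm4 2.37, Sparc 2.24, Tubb1 2.13, Alox12 1.77, Rasgrp2 1.41, Ptgir 1.38 and P2ry1 0.87, while Srgn had -0.48 and Vps33b -0.56. Among the other genes that rose, the excess was 4.62 for Slc38a5, 4.60 for Ces2g, 3.79 for Acp5, 3.78 for Sardh, 3.67 for Tspan33, 3.36 for Cldn13, 3.16 for Parvb, 2.76 for Cda, 2.74 for Col5a1, 1.82 for Nqo1, 1.40 for Dusp1, 1.24 for Tmcc2, 1.11 for Pfkm, 1.03 for E2f2, 0.86 for Prtn3, 0.64 for Ebp, 0.49 for Odc1 and 0.45 for Nfe2l2.

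Of the progenitor factors, the late effect lay lower by -2.44 for Ikzf2, -2.17 for Gata2, -1.75 for Kit, -1.55 for Hhex, -1.23 for Sox6, -1.18 for Lyl1, -1.08 for Zbtb16, -0.91 for Meis1, -0.67 for Myb and -0.60 for Ikzf1. Of the myeloid and mast cell genes, it was -3.86 for Cpa3, -3.10 for Fcgr3, -2.41 for Tyrobp, -2.24 for Slc18a2, -1.72 for Clec4e, -1.65 for Siglecf, -1.45 for Ncf1, -1.33 for Ncf4 and -1.31 for Fcer1g. Of the signalling and interferon genes, it was -1.27 for Psmb8, -0.82 for Psmb9, -0.58 for Irf1, -0.37 for Ifnar1, -1.13 for Jak3, -0.73 for Jak1 and -1.17 for Egr1.

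The remaining values were -2.85 for Gcnt2, -2.72 for Crisp3, -2.39 for Stxbp6, -2.33 for Fap, -2.30 for Elmo1, -2.21 for Cd52, -2.15 for Cd244a, -2.12 for Perp, -1.92 for Il18rap, -1.29 for Bcl2, -0.96 for Pink1, -0.52 for Dnmt3b and -0.42 for Rfc2.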

How the results depend on the processing

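The count of 2253 genes stayed within 1.5 times under every alternative run except the second brightest probe set, where 5087 genes could be tested. There 641 differed, 340 higher and 301 lower, 167 of them at least 2-fold, 96 passed the interaction, and 450 were among the 2253. The interaction count of 504 was 320 with no filter, 853 with the replicate block and 258 without the 4 arrays lettered A; the cause was not tested. Leaving out 1 array gave 1691 (without GATA1 42 h B) to 2221 genes differing, 784 to 1138 higher, 853 to 1139 lower, 508 to 578 at least 2-fold and 324 (without GATA1 18 h B) to 539 for the interaction, with 326 without GATA1 18 h C. In the paired fit, with the replicate block, 3052 genes differed, of which 2221 were among the 2253. Only the 6 arrays at 42 h gave 1685 genes, array weights 2926 and no filter 1758. Of 139 genes named by the rule 137 were called, and 89 of these kept their call under each of the 21 to 23 alternatives in which they could be tested. Of the other 48, 23 lost it on leaving out 1 array, 24 without letter A, 20 with only the 6 arrays, 1 with the block and 34 of 79 in a second probe set; none of the 137 reversed. The block ended the call of 1 gene named by the rule (Lig1, adjusted p = 0.0573); the calls it gained among named genes stand beside their values. With the block the stem and progenitor list had 2 members higher in place of 1, the red cell membrane list 2 lower in place of 1 and the lymphoid list 1 higher in place of 0. It also gave 13 antioxidant genes higher in place of 9, 6 late maturation genes in place of 4 and 7 p53 targets in place of 5. Red cell membrane genes called higher were 15 in place of 13, and several other lists moved by less. Among genes the text names, Bcl2l1, Fech, Gp9, Lig1, Rfc2, Stat5b and Tfrc also lost their call without letter A. With the mean of all probe sets Bcl2l1, Myb, Nfe2l2, Prdx4, Rfc2 and Tfrc lost it. Lists that counted 2 or fewer members in a direction often changed by 1 when an array was left out. A low signal over background limits genes near the bottom of the scale.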

Other observations

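Some genes that missed the threshold passed it when the replicate letters were taken as pairs; each was chosen after its values were seen. Klf3, a KLF1 target and repressor of the same CACCC words, read 129, 44.6 and 59.2 on vector-labelled arrays A, B and C and 276, 175 and 165 on GATA1-labelled arrays A, B and C. Letter A was highest in both groups, and the groups did not overlap. Its difference of 1.31 ± 0.52 had an adjusted p of 0.114 in limma without and 0.00802 with the block. Lyz2, a lysozyme of macrophages and granulocytes, read 422, 559 and 641 and 272, 350.4 and 339.5, lower without overlap (adjusted p = 0.0558 without and 0.000314 with the block). Dnmt3a, a DNA methyltransferase that restrains stem cell renewal, read 890.5, 1234 and 739 and 481, 646 and 642, and its adjusted p was 0.0609 without and 0.011 with the block. Gp5, a subunit of the platelet receptor for von Willebrand factor, read 178, 125 and 87.1 and 290.3, 202 and 129.8, overlapping between letters but higher with GATA1 in each (adjusted p = 0.464 without and 0.0432 with the block).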
